A study of Drosophila melanogaster with 3 samples.

Results

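The weak X chromosome peaks of Combgap were the 5225 rows on chromosome X, of 30000 in the peak list called on the pooled alignments, whose interval overlapped no peak of the other list, which the authors cut by irreproducible discovery rate (IDR). They made up most of the X, which held 7508 pooled rows in all, 1705 thresholded peaks, and 578 rows that overlapped a thresholded interval without being listed there. The members were chosen by measured values, the pooled signal, since the thresholded list was exactly the 7913 pooled rows of highest signal. On the X, the 2 members just inside the limit had a pooled signal of 371.6 and 371.0 (ranks 7917 and 7926), and the 2 thresholded peaks just outside it had 371.99 and 372.2 (ranks 7911 and 7908). The weak set is therefore a range of signal with no gap at its edge, and signal is given below as a description. Its median signal was 109 on the scale of the pooled list, against 117 at the 14249 weak peaks of 2L, 2R, 3L and 3R and 873 at the thresholded peaks of the X.

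All samples belonged to 1 group, 3 biological replicates of whole embryos of mixed sex collected between 0 and 24 h of age. Chromatin immunoprecipitation and sequencing (ChIP-seq) was done with an antibody against GFP in a transgenic cg-GFP line, in which Combgap carries GFP at its C-terminal end, and chromatin was sonicated to 200 to 800 bp. The design has no treated or mutant group, and male and female embryos were not separated, so the comparisons are between chromosomes and between parts of the X. All lists were called against 1 shared control alignment. Each peak is a mixture of embryonic tissues and stages, and fewer bound cells cannot be told apart from weaker binding in each cell. Coordinates are those of dm6, counted from 1, and the read depth is unknown.

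Combgap, which has zinc fingers, recognises GTGT elements and takes part in recruiting Polycomb proteins to their response elements. In male flies the MSL complex, with the roX RNAs, spreads along the X from GA-rich entry sites and raises the transcription of its genes. Long alternating runs of G and T, or of C and A on the opposite strand, are known to be more frequent on the fly X than on the autosomes.

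The sequences below show the kinds of site that the weak X peaks covered. They were read from the RefSeq release 6 assembly, which has dm6 coordinates, on the plus strand, and each spans 101 bases. Not all are centred on the summit, and those at RhoGAP19D, CG34338, htk and Larp7 do not hold the summit. Each line names the gene with the nearest start site. The first 3 are among the longest GT or CA runs at weak X summits outside exons, of 51, 48 and 47 bp, with the run in capitals, and were chosen after their values were seen.
Intergenic, 2771 bp upstream of an INE-1 element, chrX:21567961-21568061: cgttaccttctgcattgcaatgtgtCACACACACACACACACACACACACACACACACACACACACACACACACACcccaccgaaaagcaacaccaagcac
Intergenic, 10026 bp downstream of the start of lncRNA:CR45482, chrX:4039081-4039181: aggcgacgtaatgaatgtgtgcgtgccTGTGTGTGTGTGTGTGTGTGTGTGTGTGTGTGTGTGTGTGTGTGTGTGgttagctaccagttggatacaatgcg
Intron of RhoGAP19D, chrX:20497677-20497777: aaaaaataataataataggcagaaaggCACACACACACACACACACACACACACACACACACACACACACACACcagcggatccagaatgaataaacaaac
The next pair shows shorter runs at weak peaks close to the signal limit, near CG34338 and in an intron of CG9095, both with a run of 20 bp in capitals.
CG34338, chrX:7770316-7770416: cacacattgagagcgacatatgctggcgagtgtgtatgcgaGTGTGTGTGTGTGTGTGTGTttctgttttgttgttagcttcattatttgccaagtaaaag
RpL37-1, chrX:15142216-15142316: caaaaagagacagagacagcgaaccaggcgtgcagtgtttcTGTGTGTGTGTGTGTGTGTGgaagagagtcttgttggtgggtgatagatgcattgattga
A pair of high weak summits had GAGAGA and no GTGTGT within 100 bp, with GAGAGA stretches in capitals. They lay in introns of mgl, the fly Megalin receptor gene, and of Smr, a co-repressor gene.
mgl, chrX:9496308-9496408: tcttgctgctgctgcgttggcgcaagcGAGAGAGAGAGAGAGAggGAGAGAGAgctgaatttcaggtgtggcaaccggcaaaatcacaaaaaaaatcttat
lncRNA:CR43963, inside Smr, chrX:12720183-12720283: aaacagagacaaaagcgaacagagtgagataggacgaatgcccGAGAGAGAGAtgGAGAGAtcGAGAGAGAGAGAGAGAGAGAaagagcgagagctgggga
Another pair had neither motif, with the summit base in capitals.
prage, chrX:1772762-1772862: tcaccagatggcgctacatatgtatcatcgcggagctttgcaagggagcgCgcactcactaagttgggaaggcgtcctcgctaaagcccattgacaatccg
CG14207, chrX:19609799-19609899: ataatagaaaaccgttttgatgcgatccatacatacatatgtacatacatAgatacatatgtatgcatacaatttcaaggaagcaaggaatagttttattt
The last pair had TATCGATA, the sequence bound by the promoter factor DREF, in capitals, upstream of htk and Larp7, and was also chosen after its values were seen.
htk, chrX:18843544-18843644: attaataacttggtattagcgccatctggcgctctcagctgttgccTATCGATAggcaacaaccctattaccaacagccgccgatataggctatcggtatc
Larp7, chrX:9243693-9243793: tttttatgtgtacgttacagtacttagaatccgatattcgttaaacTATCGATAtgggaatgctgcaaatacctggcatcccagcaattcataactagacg

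Weak Combgap peaks were denser on the X than on every other arm in all 3 replicates. Replicates 1, 2 and 3 had 220.0, 210.2 and 213 weak summits per Mb on the X, against 129, 133 and 128 on 2L, 2R, 3L and 3R together. The lowest X value lay above the highest value of any single arm, 151 on 2R in replicate 2. The mean was 214 ± 5.07 per Mb on the X (SD, n = 3), against 115 ± 2.38 on 2L, 149 ± 2.03 on 2R, 124 ± 1.28 on 3L, 133 ± 4.21 on 3R and 52.7 ± 3.23 on the short chromosome 4. The X density was 1.65 ± 0.0618 times that of the 4 large autosomal arms in the replicates, above 1 in 3 of 3, and 1.70 in the pooled list. The exact two-sided sign-flip permutation test over replicates gave p = 0.25, the smallest that 3 replicates allow. Thresholded peaks were also denser on the X, at 72.4 per Mb against 56.4 on the autosomal arms, but the ratio was 1.28. A difference between the weak and thresholded ratios has no replicate check, because there is 1 thresholded list. Densities use the whole assembled length of each arm. On 2R, 3L and 3R this length includes windows of 1 Mb near an end with no weak summit in the pooled list. The lowest X window held 49. The ratio without such windows was not computed.

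**Figure D1:**
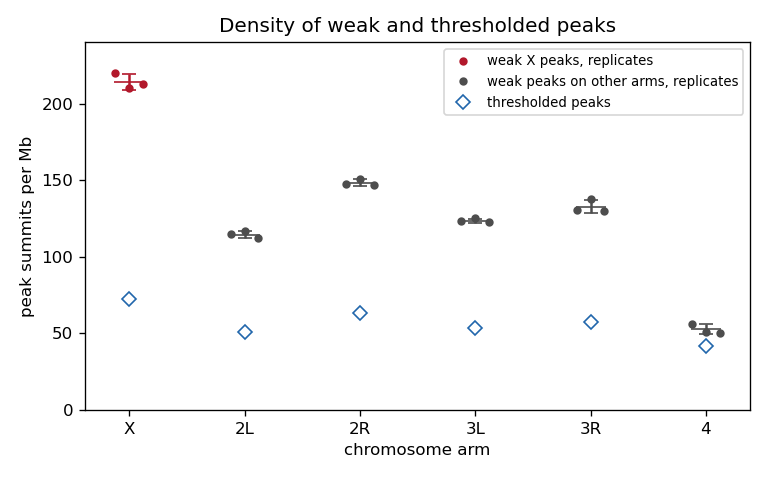
Peak summits per Mb of assembled length (y axis) on each chromosome arm (x axis): points are the 3 replicate lists, horizontal marks and bars their mean and SD for weak peaks, and open diamonds the thresholded list. The weak peaks of the X sit at 214 ± 5.07 per Mb, above every other arm, while the thresholded densities of the large arms lie closer together.

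The X share of peaks was higher further down the signal ranking. Of all weak peaks, 26.7% lay on the X in the pooled list (exact 95% interval 26.1 to 27.4), and 26.8%, 25.4% and 26.3% in replicates 1, 2 and 3. This was above the 21.5% of thresholded peaks on the X in 3 of 3 replicates (exact two-sided sign-flip permutation p = 0.25, the smallest possible). That 21.5% is 1 value from a list built on the same replicates, and this list also set which replicate peaks count as weak. The 3 comparisons are therefore not independent, and no conclusion is drawn from the test. The X makes up 17.6% of the assembled length of these arms. In bins of 3000 peaks by rank, the X held 20.3% ± 0.0192 (SD, n = 3) of the highest bin and 29.4% ± 0.994 of the lowest. Each list held exactly 30000 peaks, so the share beyond that rank is not known. Intervals given here cover counting error only, and neighbouring summits are not independent.

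**Figure D2:**
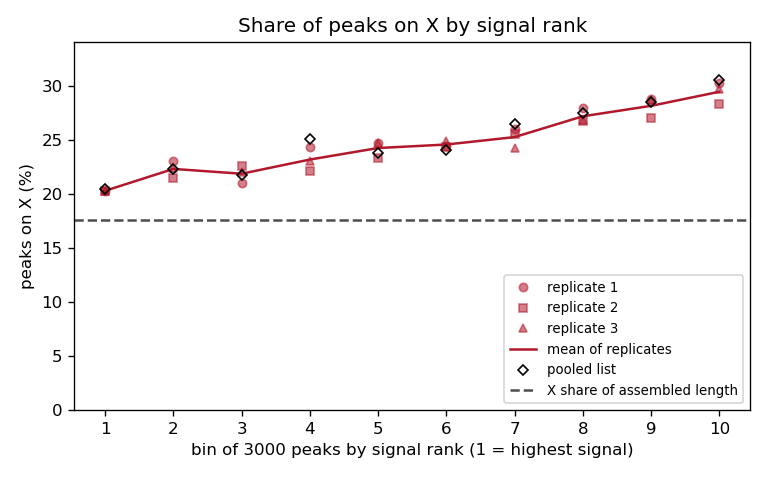
Percent of peaks on the X (y axis) in bins of 3000 peaks by signal rank (x axis, bin 1 highest), with replicate lists in red, the pooled list as open diamonds and the X share of assembled length as a dashed line. The replicate mean is 20.3% in bin 1 and 29.4% in bin 10, and every bin lies above the 17.6% line.

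The weak peaks covered the X along most of its length. In windows of 1 Mb, the X had a median of 243 weak summits (49 to 305 over 23 windows), against 140.5 (0 to 280 over 108 windows) on the large autosomal arms. Of the 23 X windows, 19 were over the autosomal median, and 4 of 108 autosomal windows were over the X median. The lowest X counts were 129, 80 and 49, in the last 3 whole windows toward the centromere. The weak intervals covered 9.96% of the X, against 5.83% of the autosomal arms. Weak X summits also stood further from the nearest thresholded summit, at a median of 4996 bp against 3955 bp for weak autosomal summits.

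Weak X peaks recurred between replicate lists at a slightly lower mean rate than weak autosomal peaks. Of the 5225, 3326 (63.7%) overlapped a peak of all 3 replicate lists, 1270 of 2, 587 of 1 and 42 of none, where 66.4% of weak autosomal peaks overlapped all 3. Between pairs of replicate lists, 75.0% ± 2.44 (SD over 6 ordered pairs) of weak X peaks and 76.1% ± 2.80 of weak autosomal peaks overlapped a peak of the other list. The pairs share 3 lists and are not independent. From replicate 1 the X was lower in replicate 2 (73.8% against 77.1%) and 3 (76.3% against 77.9%). It was also lower from replicate 3 in replicate 1 (79.1% against 79.4%) and 2 (74.3% against 76.8%). From replicate 2 it was higher in replicate 1 (74.5% against 73.5%) and 3 (72.03% against 71.98%). The members in all 3 lists had a median pooled rank of 16655 and those in 1 list 27525. The median −log10 q of a weak X peak was 1.31, against 4.35, the ceiling of the list, at every thresholded X peak.

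GTGTGT, on either strand within 100 bp of the summit, marked 38.4% of weak X peaks (2006 of 5225), against 33.5% of weak autosomal peaks. The background over all 200 bp tiles of the X outside pooled peaks was 11.1%, and 10.3% on the autosomal arms. At thresholded X peaks the share was 70.3%. The X exceeded the autosomes by 4.13, 2.91 and 3.14 percentage points in replicates 1, 2 and 3, a mean of 3.39 ± 0.650 (SD, n = 3, higher in 3 of 3), and the exact two-sided sign-flip permutation test gave p = 0.25, the smallest possible. Where present, the motif lay a median of 29.5 bp from the weak X summit and 32.5 bp from the weak autosomal one, and 71.0% of the weak X motifs lay within 50 bp.

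Longer runs were also more frequent at the weak peaks of the X than at those of the autosomes. An alternating GT run of at least 12 bp lay within 100 bp of 16.7% of weak X summits and 9.76% of weak autosomal summits. Runs of at least 20 bp marked 5.57% of weak X and 2.69% of weak autosomal summits, and runs of at least 30 bp 0.880% and 0.232%. The difference for runs of at least 12 bp was 5.69 ± 0.504 percentage points in the replicates (SD, n = 3, higher on the X in 3 of 3). Such runs are also more frequent on the X itself, at 137 per Mb against 63.5 per Mb on the autosomal arms. Relative to tiles of the same chromosomes outside pooled peaks, the weak X and weak autosomal shares were 15.9-fold and 16.2-fold for runs of at least 12 bp, and 21.0-fold and 24.9-fold for runs of at least 20 bp, so the order turned. For GTGTGT they were 3.47-fold and 3.27-fold. These values depend on the background. Over all 200 bp tiles, runs of at least 12 bp were in 2.50% on the X and 1.18% on the autosomal arms, and GTGTGT in 14.3% and 12.05%. Against all tiles, the X fold for GTGTGT lay below the autosomal one.

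A run of a given length was under a weak peak more often on the X. Of 3234 X runs of at least 12 bp, 39.2% overlapped a weak and no thresholded peak, against 27.3% of 6920 autosomal runs. In the replicate lists the shares were 38.5%, 33.1% and 35.3% on the X and 27.6%, 25.6% and 26.4% on the autosomal arms, so that the groups did not overlap. In the pooled list the X share was higher in each of the 9 length classes examined, from runs of 6 to 7 bp (16.7% against 9.86%) to runs of 40 bp or more, where the counts were 12 of 19 on the X and 4 of 23 on the autosomal arms. The replicate lists had the same order in every class except in replicate 2 at 30 to 39 bp, with 33 of 86 runs (38.4%) on the X and 36 of 85 (42.4%) on the autosomal arms. Under thresholded peaks the shares for runs of at least 12 bp were 24.2% on the X and 25.6% on the autosomal arms. Weak peaks also covered more of the X, and beside that coverage the order turned round. The share of runs under a weak peak was 3.69 ± 0.213 times the share of bases covered on the X, against 4.56 ± 0.233 times on the autosomal arms (SD, n = 3 each).

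**Figure D3:**
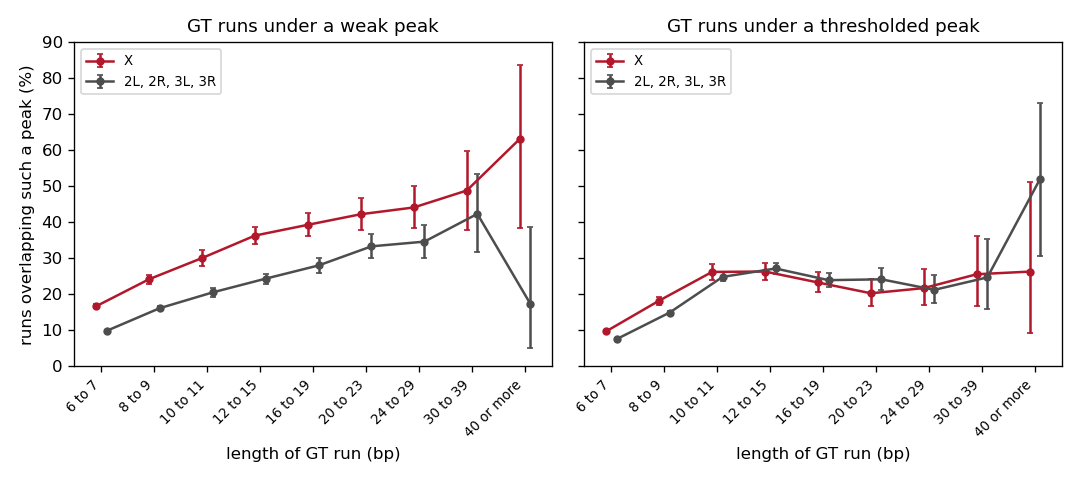
Percent of alternating GT runs that overlap a weak peak of the pooled list and no thresholded one (left) or a thresholded peak (right), by run length in bp (x axis), on the X (red) and the large autosomal arms (grey), with exact 95% binomial intervals. Under weak peaks of the pooled list the X lies above the autosomes in every class (replicate 2 alone had the opposite order at 30 to 39 bp), whereas under thresholded peaks the curves lie close together except at 40 bp or more, where 19 X and 23 autosomal runs give wide intervals.

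The excess of weak peaks on the X was not limited to sites with GTGTGT within 100 bp of the summit. Shorter GT elements were not counted, so a site without GTGTGT can still hold GTGT. Weak peaks with GTGTGT were 1.82 ± 0.0913 times as dense on the X as on the autosomal arms (SD, n = 3), and weak peaks without it 1.56 ± 0.0441 times. For thresholded peaks the ratios were 1.47 with GTGTGT and 0.989 without it. Weak X peaks thus differed from thresholded X peaks in this count, with 3219 members lacking GTGTGT in the pooled list, at 137 per Mb against 86.9 per Mb on the autosomal arms. When members had to overlap all 3 replicate lists, the ratio without GTGTGT was 1.48, and 1.34 among weak peaks above the median signal. With no GTGTGT within 250 bp of the summit, it was 1.52 in the pooled list.

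Down the weak ranks, GTGTGT became less frequent and coding exons more frequent. Weak peaks were put in 5 equal classes by pooled signal over all chromosomes. On the X, GTGTGT marked 56.2%, 47.2%, 36.9%, 30.04% and 26.4% of summits from the highest class to the lowest, against 50.3%, 39.3%, 30.1%, 26.1% and 20.2% on the autosomal arms. The X was higher in 5 of 5 classes. Summits in coding exons made up 1.19% of the highest X class and 19.6% of the lowest, against 1.25% and 14.1% on the autosomal arms.

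**Figure D4:**
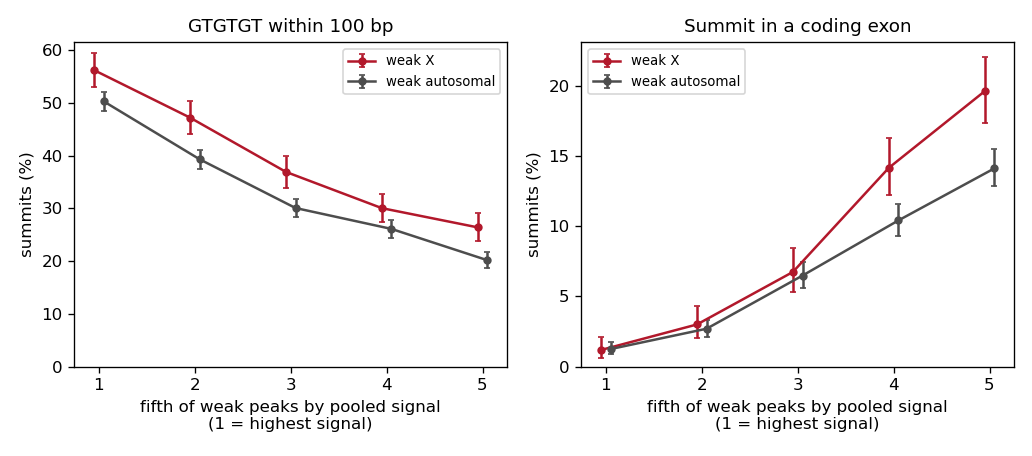
Percent of weak summits with GTGTGT within 100 bp (left) and in a coding exon (right), in 5 equal classes of pooled signal (x axis, class 1 highest), for the X in red and the large autosomal arms in grey, with exact 95% intervals. GTGTGT goes down from 56.2% to 26.4% over the X classes while coding exons go up from 1.19% to 19.6%.

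Weak X peaks were less tied to gene starts than thresholded peaks. Their summit lay within 500 bp of a start site for 20.7% (1084 of 5225) in the pooled list, against 21.0% of weak autosomal peaks. The bases within that distance were 15.6% of the X and 16.7% of the autosomal arms. Thresholded X peaks reached 43.0%. The X minus autosomal difference was 0.286, −0.934 and −0.628 percentage points in replicates 1, 2 and 3, a mean of −0.425 ± 0.635 (SD, n = 3), which is smaller than its spread (exact two-sided sign-flip permutation p = 0.5). Its sign changed in 4 of 5 other definitions of the pooled count.

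Weak X summits were placed more often in 3' UTRs and coding exons than weak autosomal summits, and less often between genes. Intergenic sequence held 21.0% of weak X and 27.7% of weak autosomal summits, and makes up 22.97% of the bases of the X and 28.7% of those of the autosomal arms. Introns held 54.0% of weak X and 52.0% of weak autosomal summits, but relative to their share of bases (43.8% of the X and 39.02% of the autosomal arms) the order turned, at 1.23 on the X and 1.33 on the autosomal arms. Noncoding exons held 1.65% of weak X and 2.95% of weak autosomal summits, and the X was lower in 3 of 3 replicates. These were 0.243 and 0.390 times their share of bases. The 3' UTR class held 7.02% of weak X and 3.87% of weak autosomal summits, which were 1.11 and 0.841 times the share of bases. That difference was 2.89 ± 0.233 percentage points in the replicates (SD, n = 3, higher on the X in 3 of 3) and held in 5 of 5 signal classes. Coding exons held 9.55% of weak X summits, 6.84% of weak autosomal summits and 1.06% of thresholded X summits. The weak difference was 3.00 ± 0.853 percentage points (SD, n = 3, higher on the X in 3 of 3), and the X was higher in 4 of 5 signal classes. Coding exons make up 16.4% of the bases of the X and 16.8% of those of the autosomal arms. Weak summits were thus fewer there than the share of bases on both, at 0.584 times on the X and 0.408 times on the autosomal arms. Position along the gene was counted only for weak summits inside a single gene, 3369 on the X and 9067 on the autosomal arms in the pooled list. Among such summits, the last of 5 equal parts of the gene held 16.0% ± 0.303 on the X and 12.5% ± 0.634 on the autosomal arms (SD, n = 3 each).

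The coding and 3' UTR members were unlike each other. Of the 499 weak X summits in coding exons, 7.01% had GTGTGT, their median pooled rank was 25504 and 34.5% overlapped all 3 replicate lists. Of the 367 in 3' UTRs, 53.1% had GTGTGT, the median rank was 20424 and 62.1% overlapped all 3. Introns and 5' UTRs lay between these for GTGTGT, at 42.9% and 24.9%. The contrast was not particular to the X. Among weak autosomal summits, GTGTGT marked 8.62% in coding exons and 52.5% in 3' UTRs, and 41.8% and 67.8% overlapped all 3 lists.

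**Figure D5:**
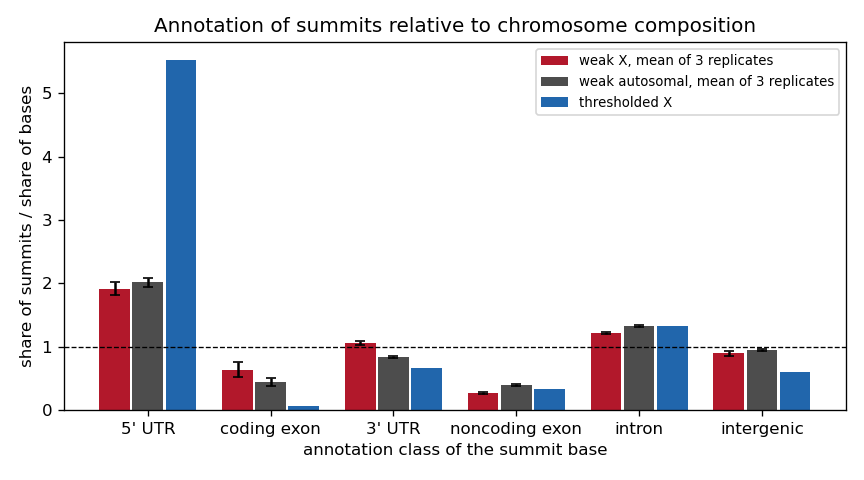
Share of summits in each annotation class divided by the share of chromosome bases in that class (y axis), for weak X and weak autosomal peaks (mean and SD of 3 replicates) and thresholded X peaks (1 list). The thresholded bar stands out at 5' UTRs, and weak X bars lie above weak autosomal bars at coding exons and 3' UTRs.

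Other short motifs showed small differences. TATCGATA, sought on both strands within 100 bp, marked 1.68% of weak X and 0.891% of weak autosomal summits, a difference of 0.745 ± 0.0193 percentage points (SD, n = 3, higher in 3 of 3). It was a feature of start sites. Within 500 bp of one it marked 6.83% of weak X summits (74 of 1084) and 3.38% of weak autosomal summits (101 of 2987), and beyond that distance 0.338% and 0.231%. All 200 bp windows centred on start sites held it in 7.02% of cases on the X and 4.42% on the autosomal arms. The summit windows could lie up to 500 bp from a start site, so these shares and the summit shares are not measured alike. GAGAGA marked 11.5% of weak X and 10.8% of weak autosomal summits, against 6.39% and 6.26% of background tiles, and the X was higher in 2 of 3 replicates. At thresholded X peaks GAGAGA reached 23.3%. GCCAT, the core bound by the Polycomb recruiter Pho, marked 35.3% of weak X and 37.9% of weak autosomal summits, against 36.3% and 35.4% of background tiles.

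At the level of genes, a weak peak was often the only Combgap signal at an X promoter. Of 2196 protein-coding genes on the X, 728 (33.2%) had a weak summit and no thresholded summit within 1 kb of a start site, 251 had both, 411 a thresholded summit alone and 806 neither. On the large autosomal arms 2004 of 11669 genes (17.2%) had a weak summit alone. The replicate lists gave 32.7% ± 1.08 on the X and 17.9% ± 0.424 on the autosomal arms (SD, n = 3 each). With or without a thresholded summit, 44.6% of X genes had a weak summit there. The lists that follow are read against the 33.2% and 44.6%.

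Of the 8 genes of dosage compensation and X counting, 3 had a weak summit alone, 3 had both kinds and 2 had neither. The weak-only share was 37.5% (exact 95% interval 8.52 to 75.5), against 33.2% of protein-coding X genes. With or without a thresholded summit, 75.0% had a weak summit, against 44.6% of protein-coding X genes. Of the 3 genes with a weak summit alone, 2 are noncoding, so the list and this background are not alike and their shares are not directly comparable. Those with a weak summit alone were both roX genes, which encode the RNAs of the MSL complex, and mof, its histone acetyltransferase. The highest weak summit at roX1, 754 bp inside the transcript, had a pooled signal of 246 (rank 10877) and replicate signals of 104, 56.1 and 86.0. The highest at roX2, 80 bp inside the transcript, had a pooled signal of 180 (rank 13831) and replicate signals of 86.8, 28.7 and 77.0. Replicate signals come from separate scales and are not compared with each other, and the replicate peak is the highest that overlaps the pooled interval. The roX2 ranks were 13121, 20533 and 13243, so replicate 2 placed it lowest. The mof summit ranked 17479, in a coding exon 145 bp from the start. The roX1 window holds GAGAGA (capitals, both strands), while the roX2 window has none in these letters.
lncRNA:roX1, chrX:3861257-3861357: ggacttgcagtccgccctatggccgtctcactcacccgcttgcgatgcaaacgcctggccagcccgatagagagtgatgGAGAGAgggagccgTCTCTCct
lncRNA:roX2, chrX:11579095-11579195: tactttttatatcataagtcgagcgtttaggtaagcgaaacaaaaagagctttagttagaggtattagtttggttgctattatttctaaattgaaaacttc
Sxl, the switch gene of sex determination, had 2 weak summits at its starts, the highest at rank 9824, besides thresholded ones led by rank 959. The X-counting genes run and upd1 had both kinds, and sisA and sc had neither within 1 kb.

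Patterning genes and Polycomb genes had a thresholded summit more often than protein-coding X genes as a whole, of which 30.1% had one. A gene with a thresholded summit cannot count as weak alone, so their lower weak-only shares are not a separate result. Of 28 patterning and fate transcription factor genes, 4 had a weak summit alone, 7 both, 14 a thresholded summit alone and 3 neither, so weak alone made up 14.3%. The 4 were the Bar homeobox genes B-H1 (rank 8771) and B-H2 (rank 13704), the Runx gene lz (rank 10484) and the POU gene acj6 (rank 16456). The B-H1 summit lay 197 bp upstream of the start, with replicate signals of 171, 46.3 and 97.9. All 10 Polycomb, Trithorax and chromatin genes had a thresholded summit, 7 of them alone and 3 with a weak one. The Polyhomeotic genes ph-p and ph-d were among the 7, and as near-identical neighbours they can share reads.

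The remaining lists had weak-only shares near that of all protein-coding X genes, at 35.3% of signalling, 32.0% of neuronal and 35.7% of ribosomal protein genes. With or without a thresholded summit, a weak summit lay at the start of 70.6% of signalling, 76.0% of neuronal and 57.1% of ribosomal protein genes, above the 44.6% of all protein-coding X genes. These lists were chosen with earlier results known and have no test. Of 17 signalling genes, 6 had a weak summit alone. They were led by upd2, a ligand of the JAK/STAT pathway (rank 8053), the integrin gene if (rank 9552), the TNF receptor gene wgn (rank 10693) and hop, the JAK kinase (rank 12257). The upd2 summit lay 280 bp upstream of the start, with replicate signals of 209, 71.0 and 84.3. Of 25 neuronal genes, 8 had a weak summit alone, led by the innexin gene shakB (rank 9623), the phospholipase C gene norpA (rank 10728), the adhesion gene rst (rank 12286) and the potassium channel gene Sh (rank 13156). The Sh summit had a GT run of 34 bp within 100 bp. Of 14 cytosolic ribosomal protein genes, 5 had a weak summit alone, among them RpS14a (rank 10674), sta (rank 11047), RpL22 (rank 11494) and RpL37-1 (rank 14228). None of these 4 had GTGTGT within 100 bp, and RpS14a can share reads with its near-identical neighbour RpS14b, which had a thresholded summit alone.

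The 10 highest weak X peaks, close together in the pooled list, ranked apart in the replicates. The highest, in the mgl intron 173 bp from a start site, ranked 7029, 7287 and 11692 in replicates 1, 2 and 3, with signals of 198, 98.5 and 89.9. Next were lncRNA:CR45668 (replicate ranks 7715, 7116 and 10955) and prage (8265, 8175 and 9101). The peak at CG8924 ranked 7822 and 9252 in replicates 1 and 3 and overlapped no replicate 2 peak. The peaks at CG3704 and CG14207 followed at pooled ranks 7957 and 7958. In replicate 2 the peaks at Trf2, a TBP-related factor gene, CG34338 and CG15894 ranked 11021, 11398 and 11690. The peak at pdgy, a gene of lipid metabolism, lay 5 bp from a start site and ranked 8387, 9894 and 7722. Of the 10 summits, 5 lay in introns, 3 between genes and 2 in 5' UTRs.

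Some X genes held large numbers of weak summits in their span. At least 1 lay in 1052 of 3725 X genes of any kind, and 595 distinct summits, of 5225, lay in the 10 spans with most. The noncoding genes lncRNA:CR32773 and lncRNA:CR44357, long transcripts that overlap many coding genes, held 104 (105.7 ± 5.69 in the replicates, SD, n = 3) and 101 (94.7 ± 6.11). Ten-a, a teneurin cell-adhesion gene, held 86 in 292 kb (77.0 ± 5.29), and kirre, an immunoglobulin-type adhesion gene, held 83 in 394 kb (83.0 ± 5.20). Mur2B held 69 in 145 kb, a span that contains br, the ecdysone-response gene, with 47. lncRNA:CR44999 held 58 and CG43759 held 47, as did the shared span of CG15465 and rg, which encodes an A-kinase anchor protein. GTGTGT marked 61.7% of the weak summits in br and in rg and 31.7% of those in lncRNA:CR32773. Per Mb of span the counts were 524 in br, 465 in lncRNA:CR32773, 295 in Ten-a, 278 in rg and 211 in kirre, against 222 over the whole X. The kirre density thus lay below that of the X. The spans were ranked by count, which was not adjusted for length.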

How the data were processed

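Combgap ChIP-seq peaks were analysed from 5 lists on dm6, 1 for each of 3 replicates, 1 for the pooled alignments and 1 thresholded by IDR; per the deposited text listings, all derived from the replicate alignments and 1 control. Not given in the sources used here are aligner, caller and IDR threshold. The authors deposited a signal per peak, whose scale differs between lists, so that it was ranked inside each list alone. They also deposited −log10 q values and summit offsets, as the authors' caller gave them. Read depth is unknown.

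Weak peaks overlapped no thresholded interval by 1 bp or more, and replicate lists were cut by the same rule. Genes and 29371 start sites came from Ensembl release 115, and sequence from RefSeq release 6. Motifs were sought on both strands within 100 bp of summits. Summits were given 1 annotation class each, with 5' UTRs taking priority, then coding exons, 3' UTRs, noncoding exons, introns and intergenic bases. Means and SDs are over replicate lists, which were tested by exact two-sided sign-flip permutation. Intervals are exact binomial (Clopper-Pearson), at 95%. Genes named were those nearest the 10 highest weak X peaks, the 8 spans with most weak summits and ties, up to 4 per list of the 6 lists by highest weak-only start-site summit, and roX1, roX2, Sxl, mof, ph-p and ph-d. The members, lists and motifs were chosen with earlier results of these data known. Alternatives were another overlap rule, distances, merging, recurrence, signal limits, repeat-free bases and each replicate left out. Scripts were tested on simulated data. Software was matplotlib 3.10.9, pandas 2.3.3, scipy 1.17.1, numpy 2.4.6 and Python 3.11.15.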

Additional observations from a re-analysis of the deposited data

How the results depend on the processing

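Of 26 alternatives, 22 kept the direction of the value reported. The exact permutation tests cannot pass 0.05 with 3 replicates under any setting, so their p says nothing about stability. The X share of weak peaks ran from 24.6% to 27.5% and the density ratio from 1.52 to 1.72. The 4 that turned round all concern start sites: 15.4% of weak X against 15.2% of weak autosomal summits within 250 bp, 17.9% against 17.04% for protein-coding start sites, 23.7% against 22.7% in all 3 replicate lists, and 26.0% against 24.7% above the median signal. The GTGTGT share on the X was 26.5% within 50 bp, 56.0% within 250 bp and 16.7% for runs of at least 12 bp, each by construction of the window or motif, and stayed above the autosomal share. The share of X genes with a weak start-site summit alone was 31.5% within 500 bp and 23.9% for peaks in all 3 lists, and the ratio without GTGTGT ran from 1.34 to 1.52; these last alternatives were chosen after seeing the data. With each replicate left out in turn, the mean over the other replicates was 25.8% to 26.5% for the X share, 1.62 to 1.68 for the density ratio, 34.7% to 36.6% for GTGTGT and 20.7% to 21.5% near start sites. No paired analysis was possible between groups of samples because there is 1 group, and the X and autosomal values were compared within each replicate list. Unknown read depth and the fixed 30000 peaks per list limit what a missing peak means, and the replicates share their control.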

Other observations

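Weak X summits were also crowded in some windows and genes, chosen here after their values were seen. Of 470 windows of 50 kb on the X, with a median of 11 weak summits, the fullest was chrX:16150001-16200000, with 34 weak summits and 1 thresholded summit. It held 31, 34 and 35 weak summits in replicates 1, 2 and 3. No protein-coding gene overlaps it, and the annotation there includes lncRNA:CR46211 and mir-985. GTGTGT marked 9 of the 34. The next 4 windows held 33, 28, 27 and 27 weak summits beside 11, 9, 8 and 4 thresholded ones.

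Several short genes held many weak summits and no thresholded one. Fim, which encodes the actin-bundling protein fimbrin, held 12 in 16.2 kb, and 9, 9 and 10 in replicates 1, 2 and 3. Hgsnat, which encodes a lysosomal acetyltransferase, held 5 in 2.92 kb, none with GTGTGT, and CBP, a calcium-binding protein gene, held 5 in 5.38 kb. Repeat-marked bases lay at 22.9% of weak X and 18.3% of weak autosomal summits, and the density ratio over bases not marked as repeat was 1.63.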
